A study of Rattus norvegicus with 15 samples.

Results

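The genes described here are 10 members of the glycolytic route from sugar uptake to lactate export: the glucose transporter *Slc2a3*, the hexokinase *Hk2*, the phosphofructokinases *Pfkp* and *Pfkm* with their regulator *Pfkfb3*, the aldolase *Aldoc*, then *Gapdh*, *Pgk1*, the lactate dehydrogenase *Ldha* and the monocarboxylate carrier *Slc16a1*. They were chosen by symbol, with earlier results of these data known, from the 8621 genes that the study's 3 tables of differentially expressed genes hold. That all 10 are in these tables is therefore no result. RNA-seq was done on adrenal medullary tissue of Sprague-Dawley rats, 1 animal per sample, after the cortex had been cut away by hand. The 5 WT samples came from wildtype rats of 7 to 9.5 months. The 5 HYP samples came from MENX rats of 4 to 5 months with medullary hyperplasia, and the 5 PCC samples from MENX rats of 7 to 9.5 months with pheochromocytoma, a tumor of the adrenaline-producing chromaffin cells. The study counts some of the PCC as advanced tumors, and since the labels do not tell which samples these are, stage within PCC cannot be told apart from the spread between animals. MENX rats carry a spontaneous frameshift mutation of *Cdkn1b*, the gene of the cell cycle inhibitor p27, in every cell. HYP and WT therefore differed in age as well as in genotype, and so did HYP and PCC in age and stage.

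Glycolysis splits glucose into pyruvate in the cytosol with a net gain of ATP and NADH, and lactate dehydrogenase turns pyruvate into lactate so that the pathway can go on without oxygen. Most of its steps are run by several isozymes from separate genes, which differ in tissue, affinity and regulation, so that cells can change the isozyme at a step without changing the step itself. Many glycolytic genes are targets of the hypoxia-inducible factors, whose stabilization in the presence of oxygen, called pseudohypoxia, is known from a class of human pheochromocytomas.

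The libraries held 16315018 to 23831269 reads counted on genes (median 19749571 in WT, 16868712 in HYP and 18753812 in PCC), as recovered from the counts and FPKM of each sample. Each table lists only genes that the authors had called in that comparison, so a listed gene was already selected on these samples and a call here is no independent evidence. *Cdkn1b* transcript was present in all groups, at 44.6 to 72.1 CPM in WT, 82.5 to 124 in HYP and 108 to 173 in PCC, which does not test the labels because the mutation leaves the transcript in place. The tissue was labelled as medulla, but adrenal cortex markers were abundant: 9 of 16 such genes had values in all samples, none at 0. Their deposited FPKM summed to 20934 to 37492 in WT, 10295 to 23956 in HYP and 757 to 12080 in PCC. The FPKM sum over 10 of 14 chromaffin markers ran the other way, from 746 to 4647 in WT, 5115 to 7865 in HYP and 9820 to 16847 in PCC. WT replicate 5 had the lowest chromaffin sum (746 FPKM), PCC replicate 4 the lowest cortex sum (757 FPKM) and PCC replicate 5 the highest cortex sum of its group (12080 FPKM). In such bulk samples fewer cells of a type and less RNA per cell cannot be told apart, and the part of this shift in cell content in the changes below was not tested.

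The promoters of 8 of the 10 genes were found in the RefSeq promoter table for the rat assembly GRCr8 (250 bases before to 50 after the start site), while *Slc2a3* and *Pgk1* had no entry. The cores of the hypoxia response element, ACGTG and GCGTG, were searched on both strands, as was CACGTG, the E-box, which contains ACGTG. Of the 8 promoters 7 held at least 1 of the hypoxia response cores, against 41.6% of all 33469 promoters of the same length, and 6 held ACGTG itself (19.3% of all). GCGTG was in 5 (29.7% of all) and CACGTG in 3 (6.42% of all). *Pfkp* had only GCGTG, and in *Hk2* neither core was in this window. Stretches with ACGTG cores are shown for the 6 genes that held one. Of these *Slc16a1*, *Pfkm* and *Aldoc* were higher and *Pfkfb3* and *Gapdh* lower in PCC vs. WT, for which *Ldha* was not listed. *Slc16a1* held a further ACGTG at bases 5 to 9 after the start site, outside its stretch. Whether the cores bear on the changes was not tested. Each is 60 bases on the gene's own strand, with ACGTG, or its reverse complement, in capitals; 6 capitals mark the E-box.
*Slc16a1*, chr2:194812417-194812476 (+): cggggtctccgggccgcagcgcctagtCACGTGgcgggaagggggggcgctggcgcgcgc
*Pfkm*, chr7:131113939-131113998 (+): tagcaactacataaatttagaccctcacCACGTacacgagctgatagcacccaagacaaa
*Aldoc*, chr10:63715484-63715543 (+): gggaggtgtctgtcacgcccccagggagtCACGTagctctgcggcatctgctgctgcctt
*Pfkfb3*, chr17:71944864-71944923 (+): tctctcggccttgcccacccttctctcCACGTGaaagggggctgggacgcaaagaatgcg
*Gapdh*, chr4:159652557-159652616 (-): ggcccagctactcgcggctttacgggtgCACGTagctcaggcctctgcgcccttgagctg
*Ldha*, chr1:106507984-106508043 (+): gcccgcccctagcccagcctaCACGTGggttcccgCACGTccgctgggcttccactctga
The E-box stood 86 bases before the start site in *Ldha*, 41 before it in *Pfkfb3* and 215 before it in *Slc16a1*, counted at the A of its plus-strand ACGTG. A match is a string of letters and not a site shown to be bound.

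Over the whole route, the 9 members listed for PCC vs. WT split in the tumors, as did all genes tested. In PCC vs. WT, *Slc2a3*, *Slc16a1*, *Pfkp*, *Pfkm* and *Aldoc* rose by 1.63- to 4.08-fold, while *Hk2*, *Pfkfb3*, *Pgk1* and *Gapdh* fell by 2.30- to 3.22-fold. All 9 genes listed for this comparison passed edgeR's quasi-likelihood test at a Benjamini-Hochberg adjusted *p* under 0.05, where 85.2% of all 7001 tested genes did. Of these 5 were higher, as were 46.7% of all genes tested, and 4 were lower, as were 38.5%. In 5 of the 9 the CPM of the groups did not overlap, compared with 64.7% of all genes tested. On the log2 scale the 9 genes had a median change of 0.70, beside 0.44 over all genes tested. Scaling to the recovered library totals or to the total of the listed counts moved the median of all genes by 0.29 and 0.50 and raised the share of higher calls from 54.8% to 68.9% and 76.3%, and no member changed its direction.

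Part of the split was present at the hyperplastic stage, where *Slc2a3*, *Aldoc* and *Slc16a1* rose and *Pfkfb3*, *Pgk1* and *Gapdh* fell. *Ldha*, which was not listed for PCC vs. WT, also fell in HYP. In HYP vs. WT, 7 of the 8 listed members passed (72.1% of 4108 genes), 3 of them higher (39.5%) and 4 lower (32.5%), and 5 had groups that did not overlap (54.8%). The members' median was -0.83 on the log2 scale, beside -0.37 over all genes tested. HYP vs. WT and PCC vs. WT share the WT samples, so their values are not independent. This count depended on scaling: with the total of the listed counts, which moved the median of all genes by 0.46 and the share of higher calls from 54.8% to 89.3%, only 3 members were called, all of them higher. Without HYP replicate 5 the test called 4 of the 8.

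PCC and HYP differed in fewer of these genes. Of 4 listed members, *Slc16a1* and *Pfkp* passed, both higher in PCC, where 44.4% of 3148 genes passed, 21.8% as higher and 22.6% as lower. Groups did not overlap in 3 of the 4, against 54.3% of all genes tested, and the median change was 0.97 on the log2 scale, beside 0.43 for all genes. Leaving out HYP replicate 2, 3, 4 or 5 left 0 of 4 called, leaving out HYP replicate 1 or PCC replicate 3 left 1, and leaving out PCC replicate 5 gave 4. With *Ldha*, which was listed for 2 comparisons with HYP only, all 10 genes are accounted for. *Pfkm* was listed for PCC vs. WT only and has no HYP values here.

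**Figure D1:**
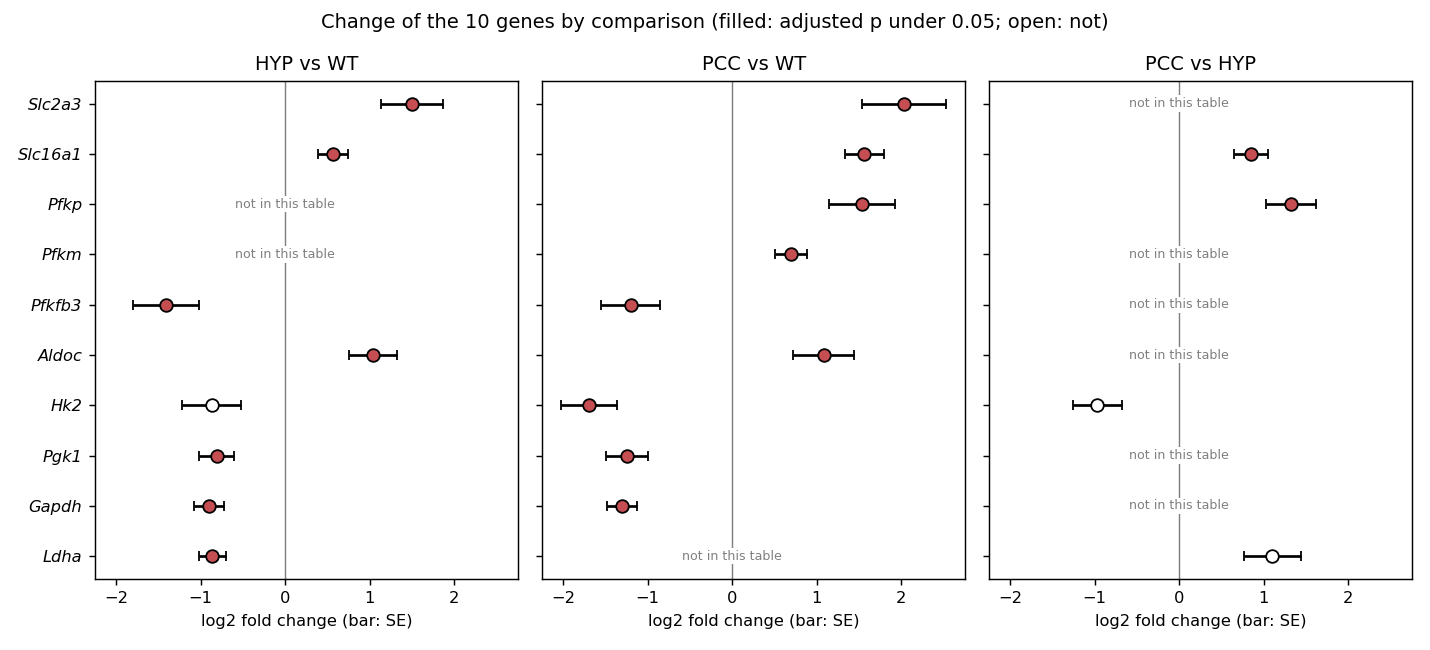
Log2 fold changes of the 10 genes from edgeR (x axis, bars are standard errors) in HYP vs. WT, PCC vs. WT and PCC vs. HYP, with filled points at an adjusted *p* under 0.05 and genes outside a table marked as such. In PCC vs. WT 5 genes lie to the right of 0 and 4 to the left, and *Ldha* lies to the left in HYP vs. WT and to the right, as an open point, in PCC vs. HYP.

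*Slc2a3* encodes GLUT3, the high-affinity glucose transporter typical of neurons (Rn06 chr4:155408233-155631856, minus strand). It was the scarcest of the 10 genes. Read counts in WT replicates 1 to 5 were 12, 19, 12, 3 and 4. In HYP they were 18, 27, 26, 34 and 35, and in PCC 22, 77, 34, 57 and 54. WT replicates 4 and 5 stood at or just above 3 counts, and on the CPM scale all HYP and PCC samples lay above the highest WT sample. Mean CPM was 0.528 ± 0.305 (SD, n = 5) in WT, 1.60 ± 0.313 in HYP and 2.27 ± 1.05 in PCC. *Slc2a3* rose by 1.5 on the log2 scale in HYP vs. WT (SE 0.37, edgeR adjusted *p* = 0.0165) and by 2.03 in PCC vs. WT (SE 0.50, edgeR adjusted *p* = 0.0089). PCC and HYP overlapped, with a log2 difference of 0.55 in the fit over all 15 samples (edgeR adjusted *p* = 0.863).

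The usual glucose transporter of most cells, GLUT1, is encoded by *Slc2a1*, and it was the more abundant of the pair throughout. Its deposited FPKM averaged 10.9 in WT, 9.5 in HYP and 21.9 in PCC, where *Slc2a3* averaged 0.216, 0.704 and 1.11 FPKM. The ratio of *Slc2a3* to *Slc2a1* in counts per kilobase of the listed gene length ran from 0.0069 to 0.0241 in WT, 0.0333 to 0.0756 in HYP and 0.0198 to 0.0866 in PCC. Its mean log2 was higher by 2.08 in HYP than in WT, without overlap (two-sided exact permutation *p* = 0.00794, the smallest that 5 samples against 5 allow, or 0.0204 adjusted over 18 ratio tests). In PCC vs. WT it was higher by 1.56 (exact permutation *p* = 0.0317, adjusted 0.0476), and PCC and HYP differed by -0.52 (exact permutation *p* = 0.317). The PCC vs. WT call was lost with a pseudocount of 1 in place of 0.5 (adjusted *p* = 0.0595) and without any one of WT replicates 1 to 5 or PCC replicates 2, 3 and 5 (adjusted *p* from 0.0519 to 0.107). The balance thus moved toward *Slc2a3* at the HYP stage, though *Slc2a1* remained the main transcript of the pair. Both genes were listed for HYP vs. WT, so this ratio rests on genes already selected on these samples.

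*Hk2* encodes the inducible hexokinase that binds mitochondria and traps glucose as its phosphate (chr4:113559427-113610243, minus strand). In WT replicates 1 to 5 its CPM was 27.3, 31.3, 54.6, 26.2 and 82.9. HYP samples had 33.7, 18.0, 15.9, 34.5 and 24.0 CPM, and PCC samples 11.4, 10.5, 12.7, 12 and 22.2. No PCC sample reached the lowest WT sample, and the highest PCC value was that of replicate 5, which also had the highest cortex marker sum of its group. In WT and HYP it was the reverse: WT replicate 4 and HYP replicate 3, highest in cortex marker sum, were lowest in *Hk2*. *Hk2* fell by 1.69 on the log2 scale in PCC vs. WT (SE 0.33, edgeR adjusted *p* = 0.00273), a call kept in all 8 alternatives and all 10 fits without 1 sample. HYP lay between, at -0.87 against WT (edgeR adjusted *p* = 0.121), and PCC against HYP gave -0.97 (edgeR adjusted *p* = 0.0611). That last difference passed with DESeq2 (adjusted *p* = 0.00496) and without PCC replicate 5 (edgeR adjusted *p* = 0.0158). *Hk1* was not listed for any comparison, so it has no values here and its planned ratio was not formed.

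Phosphofructokinase catalyses the committed step of glycolysis as tetramers of muscle, liver and platelet type subunits. *Pfkp*, the platelet type (chr17:68511064-68559471, minus strand), had 136, 153, 203, 168 and 428 CPM in WT. HYP samples had 231, 192, 277, 241 and 226 CPM, and PCC samples 686, 407, 555, 1166 and 335. All PCC samples exceeded all HYP samples, whereas WT replicate 5, at 428 CPM, exceeded PCC replicates 2 and 5. *Pfkp* rose by 1.54 in PCC vs. WT (SE 0.39, edgeR adjusted *p* = 0.0102) and by 1.32 in PCC vs. HYP (SE 0.30, edgeR adjusted *p* = 0.0246). It was not listed for HYP vs. WT, where the fit over 15 samples gave a log2 fold change of 0.07 (SE 0.33). The PCC vs. HYP call was lost without HYP replicate 2, 3, 4 or 5 (edgeR adjusted *p* from 0.0590 to 0.0713), with log2 fold changes of 1.26 to 1.36. In PCC vs. WT all 8 alternatives and all 10 fits without 1 sample kept the call.

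*Pfkm*, the muscle type (chr7:139685573-139722132, plus strand), had 46.9, 55.3, 51.8, 39.4 and 53.3 CPM in WT and 53.1, 97.6, 76.4, 102 and 79.1 in PCC. PCC replicate 1 lay within the WT range and the other 4 PCC samples above it. *Pfkm* rose by 0.70 on the log2 scale (SE 0.19, edgeR adjusted *p* = 0.0164), less than *Pfkp*. The *Pfkp*/*Pfkm* ratio was 3.81, 3.65, 5.15, 5.62 and 10.6 in WT and 17.0, 5.49, 9.55, 15.0 and 5.57 in PCC. Its mean log2 differed by 0.83, which did not pass (exact permutation *p* = 0.119, adjusted 0.153), so a shift between the 2 subunit genes was not shown beyond the spread between animals. *Pfkp* was the more abundant of the pair in every WT and PCC sample.

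*Pfkfb3* encodes the bifunctional enzyme, with high kinase activity, that makes the main allosteric activator of phosphofructokinase (chr17:70684134-70713726, plus strand). In WT it had 66.4, 70.3, 60.4, 22.7 and 26.3 CPM, in HYP 27.5, 31.4, 11.9, 13.1 and 12.7, and in PCC 21.9, 17.8, 16.0, 26.6 and 28.5. WT fell into 3 high and 2 low samples, and WT replicates 4 and 5 overlapped both MENX groups. *Pfkfb3* fell by 1.41 in HYP vs. WT (SE 0.39, edgeR adjusted *p* = 0.0278) and by 1.2 in PCC vs. WT (SE 0.35, edgeR adjusted *p* = 0.0217). Neither call was firm. Scaling to the recovered library totals gave -1.25 and -0.94 (edgeR adjusted *p* = 0.0897 and 0.0982), and the total of the listed counts gave -0.93 and -0.74 (edgeR adjusted *p* = 0.295 and 0.257). The PCC vs. WT call was also lost without WT replicate 1 or 2 or PCC replicate 2 or 3 (edgeR adjusted *p* from 0.0509 to 0.0574), and the HYP vs. WT call without WT replicate 1, 2 or 3 or HYP replicate 3, 4 or 5 (0.0556 to 0.0768).

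The sister enzyme *Pfkfb2*, the heart type, went the other way. It had FPKM of 5.41, 5.39, 4.91, 4.25 and 3.80 in WT, 7.22, 9.44, 7.15, 9.89 and 11.4 in HYP, and 10.8, 17.7, 19.0, 24.5 and 14.2 in PCC. No HYP or PCC sample was as low as any WT sample. *Pfkfb2* rose by 0.72 in HYP vs. WT (SE 0.15, edgeR adjusted *p* = 0.00833), 1.55 in PCC vs. WT (SE 0.19, edgeR adjusted *p* = 0.000274) and 0.70 in PCC vs. HYP (SE 0.19, edgeR adjusted *p* = 0.0413), a call lost without any HYP replicate or without PCC replicate 2, 3 or 4 (0.0582 to 0.113). The *Pfkfb3*/*Pfkfb2* ratio was 5.07, 5.30, 4.91, 2.01 and 2.13 in WT. It was 1.45, 1.5, 0.662, 0.570 and 0.492 in HYP and 0.777, 0.497, 0.401, 0.516 and 0.921 in PCC. Thus *Pfkfb3* predominated in all WT samples and *Pfkfb2* in all PCC samples and in 3 of 5 HYP samples. Mean log2 of the ratio differed from WT by -2.09 in HYP and by -2.58 in PCC (exact permutation *p* = 0.00794 and adjusted *p* = 0.0204 for both), and PCC and HYP differed by -0.49 (exact permutation *p* = 0.262). Another member of the family, *Pfkfb4*, rose by 1.27 in HYP vs. WT (edgeR adjusted *p* = 0.0036) and 0.77 in PCC vs. WT (edgeR adjusted *p* = 0.0385). The latter call was lost with the authors' size factors (edgeR adjusted *p* = 0.0561) and without WT replicate 1, 3, 4 or 5 or PCC replicate 2, 3 or 4 (0.0524 to 0.101).

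*Aldoc* encodes aldolase C, the brain isozyme that splits the doubly phosphorylated fructose (chr10:65586504-65590126, plus strand). WT samples had 20.8, 25.3, 21.3, 15.7 and 7.04 CPM, HYP samples 34.6, 45.9, 31.6, 36.9 and 43.2, and PCC samples 25.0, 45.5, 31.4, 59.5 and 35.6. The lowest value was that of WT replicate 5, the library with the lowest chromaffin marker sum, and all HYP samples were above all WT samples. In PCC, replicate 1 fell just under the highest WT sample. *Aldoc* rose by 1.04 in HYP vs. WT (SE 0.28, edgeR adjusted *p* = 0.0244) and by 1.08 in PCC vs. WT (SE 0.36, edgeR adjusted *p* = 0.0368). The PCC vs. WT call was lost without WT replicate 1, 3 or 4 or PCC replicate 2 or 4 (edgeR adjusted *p* from 0.0551 to 0.0873), and the HYP vs. WT call without WT replicate 4 (0.0612).

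*Aldoa*, the muscle and general isozyme, held most of the aldolase transcript. Its FPKM was 619 to 698 in WT and 416 to 567 in HYP, and it fell by 0.68 in HYP vs. WT (SE 0.16, edgeR adjusted *p* = 0.0121). The *Aldoc*/*Aldoa* ratio was 0.00577 to 0.0248 in WT and 0.0382 to 0.0814 in HYP. Its mean log2 was higher by 1.83 in HYP, with no overlap (exact permutation *p* = 0.00794, adjusted 0.0204). As with the glucose transporters, the balance moved toward the neuronal isoform, which remained the smaller. *Aldoc* and *Aldoa* were themselves called in opposite directions on these samples, so the ratio adds no independent evidence. *Aldoa* was not listed for PCC, so the ratio was not formed there.

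*Gapdh* encodes the dehydrogenase that yields NADH in the pathway and is widely used as a reference gene (chr4:157676595-157679962, minus strand). Its CPM was 902, 949, 929, 1056 and 875 in WT, 697, 365, 463, 581 and 515 in HYP, and 343, 323, 401, 475 and 413 in PCC. Every HYP and PCC sample was below every WT sample, and WT varied little. *Gapdh* fell by 0.90 in HYP vs. WT (SE 0.18, edgeR adjusted *p* = 0.00573) and by 1.30 in PCC vs. WT (SE 0.18, edgeR adjusted *p* = 0.000475). It had the smallest adjusted *p* of the 9 genes in PCC vs. WT, and there the direction and the call held in all 8 alternatives, the smallest change being -0.80 with the total of the listed counts. In HYP vs. WT that scaling gave -0.44 (edgeR adjusted *p* = 0.163). Reads of *Gapdh* and of *Pgk1* and *Ldha* can be shared with processed pseudogenes, which the counting may have split, so their levels are uncertain to that extent.

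*Pgk1* encodes phosphoglycerate kinase, the first ATP-forming step (chrX:77263359-77279367, plus strand). It had 327, 355, 430, 509 and 619 CPM in WT, 303, 178, 321, 278 and 244 in HYP, and 204, 108, 182, 180 and 288 in PCC. The WT samples were all higher than the HYP and PCC samples, with a gap between WT and HYP of only 327 against 321 CPM. *Pgk1* fell by 0.81 in HYP vs. WT (SE 0.21, edgeR adjusted *p* = 0.0228) and by 1.24 in PCC vs. WT (SE 0.25, edgeR adjusted *p* = 0.00337). The HYP vs. WT call was lost with the total of the listed counts (-0.35, edgeR adjusted *p* = 0.561) and without WT replicate 4 or HYP replicate 2 or 5 (edgeR adjusted *p* from 0.0528 to 0.0643). As for *Hk2*, the highest WT sample was replicate 5 and the highest PCC sample replicate 5.

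*Ldha* encodes the lactate dehydrogenase subunit that favours lactate formation (chr1:102900286-102909707, plus strand), and its level dipped at the HYP stage. Its CPM was 265, 285, 259, 350 and 349 in WT, 169, 133, 196, 186 and 180 in HYP, and 263, 277, 312, 909 and 254 in PCC. HYP lay below both other groups without overlap, and PCC lay within or near the WT range except for replicate 4, at 909 CPM. *Ldha* fell by 0.86 in HYP vs. WT (SE 0.16, edgeR adjusted *p* = 0.00407). This call was lost with the total of the listed counts (-0.40, edgeR adjusted *p* = 0.0895) and in the fit over all 15 samples (-0.85, edgeR adjusted *p* = 0.0925). The difference between PCC and HYP was 1.10 (SE 0.34, edgeR adjusted *p* = 0.0674) and passed in the fit over all 15 samples (1.27, adjusted *p* = 0.0186), with the recovered library totals (1.37, adjusted *p* = 0.0417), with the total of the listed counts (1.22, adjusted *p* = 0.0368) and without PCC replicate 5 (1.22, adjusted *p* = 0.0469). Without PCC replicate 4 it was 0.58 (edgeR adjusted *p* = 0.0624). PCC vs. WT, for which *Ldha* was not listed, gave 0.43 in the fit over all 15 samples (SE 0.31, edgeR adjusted *p* = 0.684).

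Set against *Pdhb*, a subunit of the pyruvate dehydrogenase that sends pyruvate to the mitochondria, the same dip appeared within samples. The *Ldha*/*Pdhb* ratio was 2.86, 3.17, 2.37, 2.93 and 3.03 in WT. It was 2.03, 1.62, 1.94, 2.39 and 2.16 in HYP and 2.76, 4.21, 4.68, 12 and 2.99 in PCC. HYP and PCC did not overlap, and 1 HYP sample just reached above the lowest WT sample. Mean log2 of the ratio differed by -0.51 in HYP vs. WT (exact permutation *p* = 0.0159, adjusted 0.0357) and by 1.18 in PCC vs. HYP (exact permutation *p* = 0.00794, adjusted 0.0204). PCC and WT differed by 0.67, which did not pass (exact permutation *p* = 0.103, adjusted 0.143). This last difference was 0.85 and passed without PCC replicate 1 (adjusted *p* = 0.0390) and was 0.32 without PCC replicate 4 (adjusted *p* = 0.242). *Ldhb*, the other main subunit, was not listed for any comparison, so it has no values here and its planned ratio was not formed.

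*Slc16a1* encodes MCT1, a proton-coupled carrier that moves lactate, pyruvate and ketone bodies across the cell membrane (chr2:207108552-207128554, plus strand), and it was the only member called in all 3 comparisons. WT samples had 23.9, 27.2, 30.0, 42.8 and 37.7 CPM, HYP samples 38.8, 54.3, 47.8, 51.4 and 56.1, and PCC samples 76.6, 81.9, 93.9, 153 and 76.3. The order was stepwise: all PCC samples exceeded all HYP samples, and 1 WT sample, replicate 4, exceeded the lowest HYP sample. *Slc16a1* rose by 0.57 in HYP vs. WT (SE 0.18, edgeR adjusted *p* = 0.0499), by 0.85 in PCC vs. HYP (SE 0.20, edgeR adjusted *p* = 0.0292) and by 1.56 in PCC vs. WT (SE 0.23, edgeR adjusted *p* = 0.000688). Only the last was firm, with a call in all 8 alternatives and all 10 fits without 1 sample. HYP vs. WT was at the threshold and was lost with the authors' size factors (edgeR adjusted *p* = 0.0581), in the fit over 15 samples (0.0915) and without WT replicate 1, 2 or 3 or any HYP replicate (0.0535 to 0.185). PCC vs. HYP was lost without any HYP replicate or without PCC replicate 3 (edgeR adjusted *p* from 0.0535 to 0.0821).

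The lactate exporter MCT4, encoded by *Slc16a3*, was far scarcer, with 0.427 to 4.32 FPKM in WT, 0.409 to 0.829 in HYP and 0.540 to 5.59 in PCC. *Slc16a3* fell by 1.99 in HYP vs. WT (SE 0.46, edgeR adjusted *p* = 0.0120), although WT replicate 5, at 0.427 FPKM, lay within the HYP range. In PCC vs. HYP its log2 fold change of 1.27 did not pass (edgeR adjusted *p* = 0.191). The *Slc16a1*/*Slc16a3* ratio was 2.45, 2.53, 5.49, 9.92 and 26.1 in WT, 18.5 to 44.2 in HYP and 12.8 to 52.8 in PCC. Its mean log2 was higher than in WT by 2.29 in HYP and by 2.20 in PCC (exact permutation *p* = 0.0238, adjusted 0.0429, for both), and PCC and HYP differed by -0.09 (exact permutation *p* = 0.825). Both calls depended on single samples. The PCC vs. WT call was lost without WT replicate 1, 2, 3 or 4 or PCC replicate 1, 2, 3 or 5 (adjusted *p* from 0.0519 to 0.0714), and the HYP vs. WT call without HYP replicate 2, 3, 4 or 5 (0.0519 to 0.0649). *Emb*, encoding embigin, a chaperone of monocarboxylate carriers at the membrane, rose with *Slc16a1* in PCC vs. WT (log2 fold change 1.68, SE 0.30, edgeR adjusted *p* = 0.00159) and PCC vs. HYP (0.83, SE 0.20, edgeR adjusted *p* = 0.0285), the latter call being lost without any HYP replicate or without PCC replicate 2 (0.0525 to 0.083). In HYP vs. WT its 0.74 did not pass (edgeR adjusted *p* = 0.0532).

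**Figure D2:**
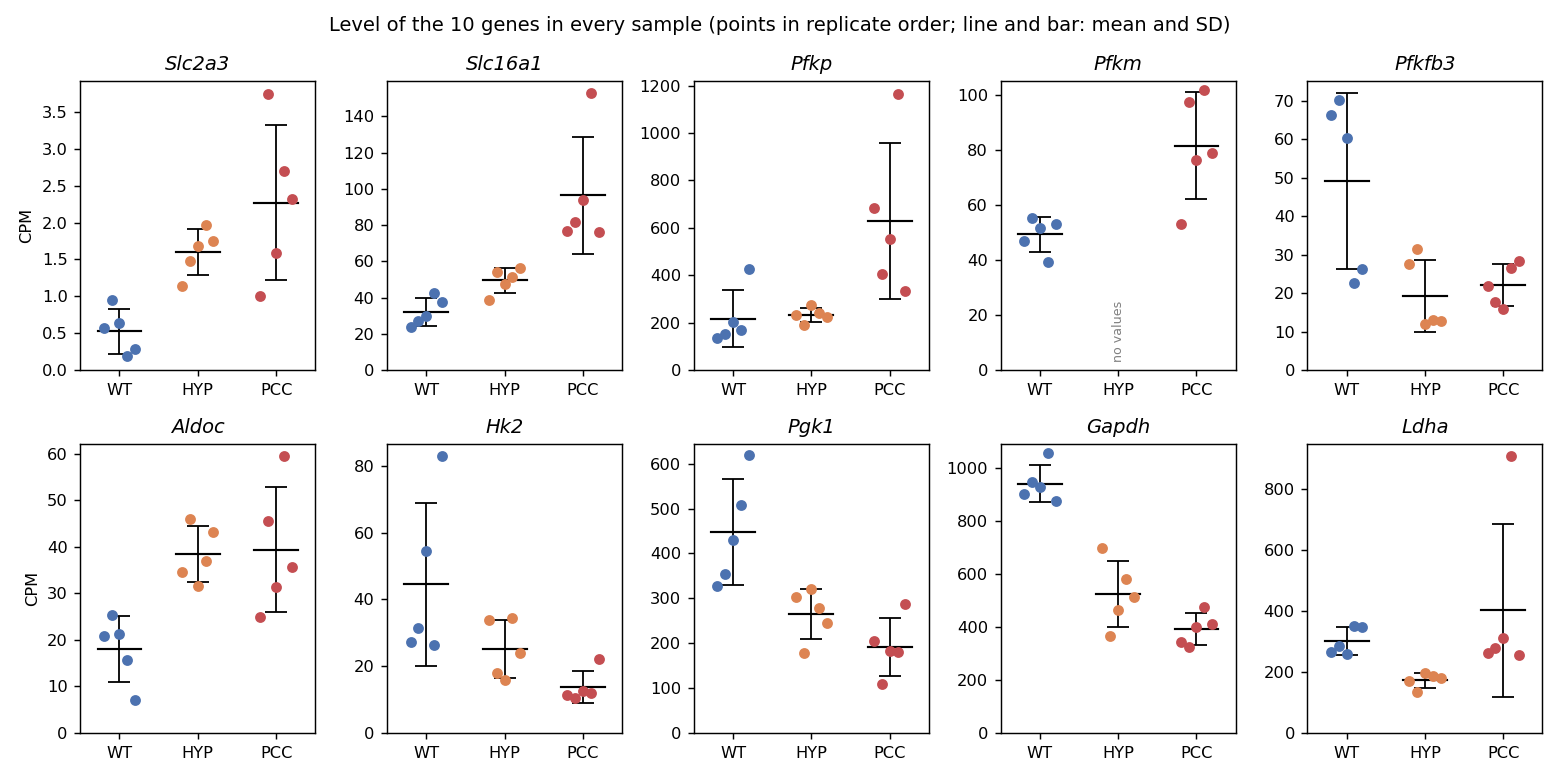
CPM (y axis, from 0) of each of the 10 genes in the WT, HYP and PCC samples, with points placed from replicate 1 to 5 within a group, the mean as a line and the SD as a bar. *Gapdh* in WT sits between 875 and 1056 CPM, above every HYP and PCC sample, and the *Ldha* point at 909 CPM is PCC replicate 4.

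Sample by sample, the highest PCC value belonged to replicate 4 for 6 of the 10 genes and to replicate 5 for 3. PCC replicate 4, the library with the lowest cortex marker sum, had the highest *Slc16a1*, *Pfkp*, *Pfkm*, *Aldoc*, *Gapdh* and *Ldha* CPM of its group. PCC replicate 5, with the highest cortex sum, had the highest *Hk2*, *Pgk1* and *Pfkfb3* CPM. The other groups differed: WT replicate 4 and HYP replicate 3, with the highest cortex sums there, had the lowest *Hk2* and *Pfkfb3* CPM. HYP replicate 3 had the highest *Pgk1* CPM of its group. Whether cortex content bears on these values was not tested. In WT, replicate 5 had the highest *Pfkp*, *Hk2* and *Pgk1* CPM. The members called numbered 9 of 9 in PCC vs. WT without WT replicate 5 and 8 of 9 without PCC replicate 4. In PCC vs. HYP they numbered 2 of 4 without PCC replicate 4 and 4 of 4 without PCC replicate 5.

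Compared with each other per gene length, in the deposited FPKM, the genes spanned more than 3 orders of magnitude in WT. *Gapdh* led with 861 ± 122 FPKM (SD, n = 5), followed by *Pgk1* (354 ± 55.1), *Ldha* (170 ± 16.3) and *Pfkp* (84.2 ± 33.2), which did not overlap. The next 4, *Pfkfb3* (18.7 ± 9.86), *Pfkm* (16.3 ± 2.73), *Aldoc* (12.2 ± 5.45) and *Slc16a1* (11.7 ± 2.27), lay within each other's spread, and *Hk2* (7.18 ± 3.09), overlapping with each of them but *Pfkm*, and *Slc2a3* came last. In HYP the order of the first 4 was the same, but *Ldha* (108 ± 14.1) and *Pfkp* (104 ± 10.7) overlapped, and *Aldoc* (27.9 ± 6.14) and *Slc16a1* (20.3 ± 4.05) were above *Pfkfb3* (7.84 ± 3.92). In PCC, *Gapdh* led by its mean (429 ± 84.3), and *Pfkp* (306 ± 166) and *Ldha* (280 ± 206) stood above *Pgk1* (185 ± 60.3) by their means, though the 3 ranges overlapped, and *Slc16a1* (42.9 ± 16.2) came next, overlapping with *Pfkm* (33.1 ± 10.1) and *Aldoc* (31.4 ± 12.3). The deposited FPKM rest on shorter lengths than the listed ones for some genes, such as 1130 against 1693 bases for *Pgk1*, 2310 against 3942 for *Slc2a3* and 2486 against 4717 for *Pfkfb3*, so the levels of these genes would be lower on their listed length.

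**Figure D3:**
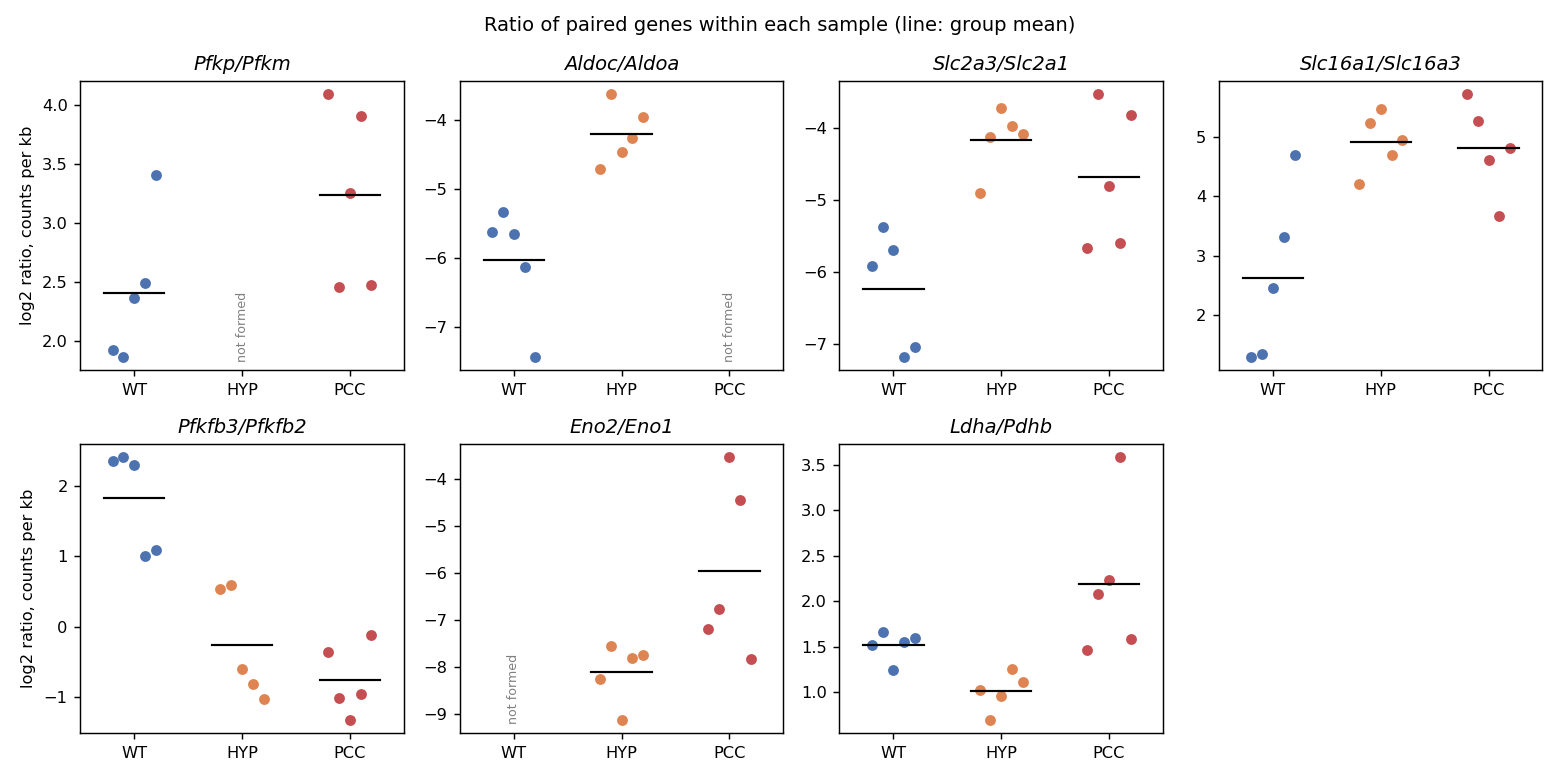
Log2 of the ratio of 2 genes in counts per kilobase (y axis) within each sample, by group, with a line at the group mean; panels without a group had no values for one of the genes. The *Pfkfb3*/*Pfkfb2* points lie at a ratio of 2.01 or more in WT and of 0.921 or less in PCC.

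Over all pairs, 8 of 13 planned ratios could be formed and 12 of 18 tests passed at an adjusted *p* under 0.05. A ratio was formed only where both genes were listed, so its genes had already been selected on these samples. A passing ratio test is therefore no independent evidence, and the share over other pairs of genes was not computed. The last pair, the neuronal enolase *Eno2* against the general enolase *Eno1*, had values in HYP and PCC only. *Eno2* counts were 28, 26, 12, 36 and 39 in HYP and 53, 49, 651, 285 and 42 in PCC, so that PCC replicates 3 and 4 stood apart. The *Eno2*/*Eno1* ratio was 0.00179 to 0.00531 in HYP and 0.00442 to 0.0869 in PCC, and its mean log2 was higher by 2.15 in PCC (exact permutation *p* = 0.0317, adjusted 0.0476). That call was lost with a pseudocount of 1 (adjusted *p* = 0.0519) and without any HYP replicate or PCC replicate 2 or 3 (0.0519 to 0.131). *Eno2* itself did not pass in PCC vs. HYP (log2 fold change 2.52, SE 0.76, edgeR adjusted *p* = 0.0628).

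The other genes of sugar metabolism were taken from 9 lists with 119 genes. In PCC vs. WT 51 were tested and 42 passed, 18 higher and 24 lower. The median change was -0.50 on the log2 scale, beside 0.44 over all genes tested. In HYP vs. WT 15 of 31 passed (6 higher, 9 lower), and in PCC vs. HYP 11 of 30 (7 higher, 4 lower). The balance of directions turned with the scaling. In PCC vs. WT it was 20 higher and 15 lower with the recovered library totals and 21 higher and 7 lower with the total of the listed counts. In HYP vs. WT it was 7 higher and 4 lower, and 9 higher and 0 lower. In PCC vs. HYP it was 13 higher and 2 lower, and 10 higher and 0 lower, while DESeq2 gave 9 higher and 13 lower. The PCC vs. HYP count was 20 without PCC replicate 5, 17 without PCC replicate 1, 5 to 7 without PCC replicate 2 or 3 and 3 to 7 without any one HYP replicate, and the HYP vs. WT count was 8 without WT replicate 3 or HYP replicate 2 or 5. The shares of all genes called in these comparisons were 85.2%, 72.1% and 44.4%.

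Of 17 sugar transporter genes other than *Slc2a3*, 7 were listed for PCC vs. WT. Of these 6 were higher, beside 46.7% of all genes tested, and 0 lower, beside 38.5% (7 and 0 with either scaling to totals). In 6 the groups did not overlap, beside 64.7% of all genes tested. The largest change was that of *Slc2a13*, a proton-coupled myo-inositol transporter, which rose by 2.81 (SE 0.32, edgeR adjusted *p* = 0.000172) from 0.694 to 1.19 FPKM in WT to 4.18 to 15.7 in PCC. *Slc45a1*, a brain sugar transporter, rose by 2.31, *Slc2a12* (GLUT12) by 1.95, *Slc2a6* (GLUT6) by 1.58, the renal cotransporter gene *Slc5a2* by 1.13 and *Slc2a8* (GLUT8) by 0.85 (edgeR adjusted *p* from 0.000172 to 0.0252 over the 6 genes). *Slc37a1* did not pass (1.04, edgeR adjusted *p* = 0.0885). *Slc2a12* and *Slc2a13* also rose in HYP vs. WT (0.82 and 1.22, edgeR adjusted *p* = 0.0309 and 0.00334) and, with *Slc45a1*, in PCC vs. HYP (1.01, 1.45 and 1.78, edgeR adjusted *p* = 0.0428, 0.0175 and 0.00275). For *Slc2a12* the HYP vs. WT call was kept in 2 and the PCC vs. HYP call in 1 of 10 fits without 1 sample, only the fits without WT replicate 4 or HYP replicate 3 and without PCC replicate 5. *Slc2a1*, not listed for PCC vs. WT, did not pass in HYP vs. WT (-0.40, edgeR adjusted *p* = 0.121, its sign changing with the total of the listed counts) or PCC vs. HYP (0.95, edgeR adjusted *p* = 0.0994). The latter passed in the fit over all 15 samples (1.12, edgeR adjusted *p* = 0.0288) and without PCC replicate 5 (0.0494), and was 0.48 without PCC replicate 4 (0.193). In PCC its highest sample was again replicate 4, at 48.7 FPKM against 11.8 to 16.7 in the other 4.

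Among the remaining glycolytic enzymes that the authors had called, most of those tested fell against WT. Of 21 such genes in the list, 7 were listed for PCC vs. WT and 6 of these were tested. Genes not called by the authors are not covered. Of 6 in PCC vs. WT 5 were lower, beside 38.5% of all genes tested, and 0 higher, beside 46.7%. The count depended on scaling: it was 3 lower with the recovered library totals and 1 lower with the total of the listed counts, where *Gpi* also changed sign. *Pgam1*, phosphoglycerate mutase, fell by 1.30 (SE 0.24, edgeR adjusted *p* = 0.00193), *Eno4* by 1.22, the ADP-dependent sugar kinase *Adpgk* by 0.98, *Eno1* by 0.97 and glucose phosphate isomerase *Gpi* by 0.50 (edgeR adjusted *p* from 0.00193 to 0.0341 over the 5 genes). In HYP vs. WT 3 of 6 were called lower, beside 32.5% of all genes tested: *Pgam1* by 0.73, *Aldoa* by 0.68 and *Adpgk* by 0.54 (edgeR adjusted *p* from 0.0121 to 0.0273). *Gpi* (-0.41), *Eno1* (-0.63) and *Eno4* (-0.84) did not pass (0.0910 to 0.138). With the total of the listed counts 0 of these 6 passed in HYP vs. WT. The *Gpi* call in PCC vs. WT was kept only without WT replicate 1 or PCC replicate 4 among 10 fits without 1 sample. In PCC vs. HYP 0 of 4 passed with edgeR, 2 with the recovered library totals and 3 with DESeq2. Directions differed there: *Eno2* (2.52, edgeR adjusted *p* = 0.0628) and *Gapdhs* (0.90, 0.0905) were higher and *Pgam1* (-0.69, 0.0974) lower. All 4 were listed because the authors had called them on these samples. Beside the falls against WT, the summed cortex markers fell from WT over HYP to PCC, as given above. Of 12 tested cortex markers 10 were lower in PCC vs. WT (median change -2.43 on the log2 scale).

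At the exits of the pathway, lactate and pyruvate genes other than the members moved in both directions. *Ldhd*, the mitochondrial D-lactate dehydrogenase, fell by 0.95 in HYP vs. WT (edgeR adjusted *p* = 0.0102) and by 1.31 in PCC vs. WT (edgeR adjusted *p* = 0.00725). *Slc16a6*, a carrier of the monocarboxylate family, fell by 1.81 in PCC vs. WT (edgeR adjusted *p* = 0.000411) and by 1.38 in PCC vs. HYP (edgeR adjusted *p* = 0.0247). *Slc16a7*, encoding MCT2, had 1.01 in HYP vs. WT (edgeR adjusted *p* = 0.0631). Of 14 genes of pyruvate entry into mitochondria only 6 were listed for PCC vs. WT. Of these 6 genes 5 were lower and 1 higher, beside 38.5% and 46.7% of all genes tested. The counts became 2 and 1 with the recovered library totals and 0 and 1 with the total of the listed counts. *Mpc2*, a subunit of the mitochondrial pyruvate carrier, fell by 0.91 (edgeR adjusted *p* = 0.00116), and in HYP vs. WT by 0.41 (edgeR adjusted *p* = 0.0418), where its sign changed with the total of the listed counts and the call was lost in all 10 fits without 1 sample.

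The reverse and side branches differed from each other. *Fbp1*, fructose bisphosphatase, which runs the phosphofructokinase step backwards in gluconeogenesis, had 2, 4, 5, 2 and 1 counts in WT and 70, 123, 57, 74 and 15 in PCC. WT was close to 0 counts and all PCC samples were above all WT samples. *Fbp1* rose by 4.29 in PCC vs. WT (SE 0.62, edgeR adjusted *p* = 0.000554) and by 2.30 in PCC vs. HYP (SE 0.51, edgeR adjusted *p* = 0.0225), and *Pc*, pyruvate carboxylase, rose by 1.43 in PCC vs. WT (edgeR adjusted *p* = 0.00294). *Sord* and *Akr1b1* of the polyol route fell by 0.90 and 1.27 (edgeR adjusted *p* = 0.00602 and 0.00126), so that this list had 2 higher and 2 lower of 5. In the pentose phosphate pathway, which makes NADPH, only 5 of 11 genes were listed for PCC vs. WT. Of these 5 genes 4 were lower and 0 higher, beside 38.5% and 46.7% of all genes tested. Lower were 3 with the recovered library totals and 2 with the total of the listed counts, where *Tkt* changed sign. *H6pd* fell by 1.77, *G6pdx* by 1.11 and *Pgls* by 0.99 (edgeR adjusted *p* = 0.000833, 0.00556 and 0.00761), and in HYP vs. WT *H6pd* and *Pgls* fell by 0.86 and 0.93 (edgeR adjusted *p* = 0.0276 and 0.0275), of which 0 passed with the total of the listed counts.

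Several further calls of these genes did not hold in edgeR without 1 sample. Such were, in PCC vs. WT, *Eno4* (without WT replicate 4 or PCC replicate 2, 3 or 4, adjusted *p* from 0.0513 to 0.0662) and *Slc5a2* (WT replicate 3 or PCC replicate 1 or 4, 0.0528 to 0.0655). Among HYP vs. WT calls they were *Pgam1* (WT replicate 3 or 4 or HYP replicate 1, 2 or 5, 0.0511 to 0.0695), *Adpgk* (WT replicate 1 or 2 or HYP replicate 2, 4 or 5, 0.0502 to 0.0685), *H6pd* (WT replicate 3 or 4 or HYP replicate 1, 2 or 3, 0.06 to 0.0747) and *Pgls* (WT replicate 1 or 3 or HYP replicate 3, 0.0504 to 0.0617). Those of PCC vs. HYP were *Fbp1* (HYP replicate 3, 4 or 5, 0.0585 to 0.071), *Slc2a13* (HYP replicate 3 or 4, 0.0545 to 0.0566) and *Slc16a6* (HYP replicate 2 or PCC replicate 2, 0.0543 to 0.0603).

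**Figure D4:**
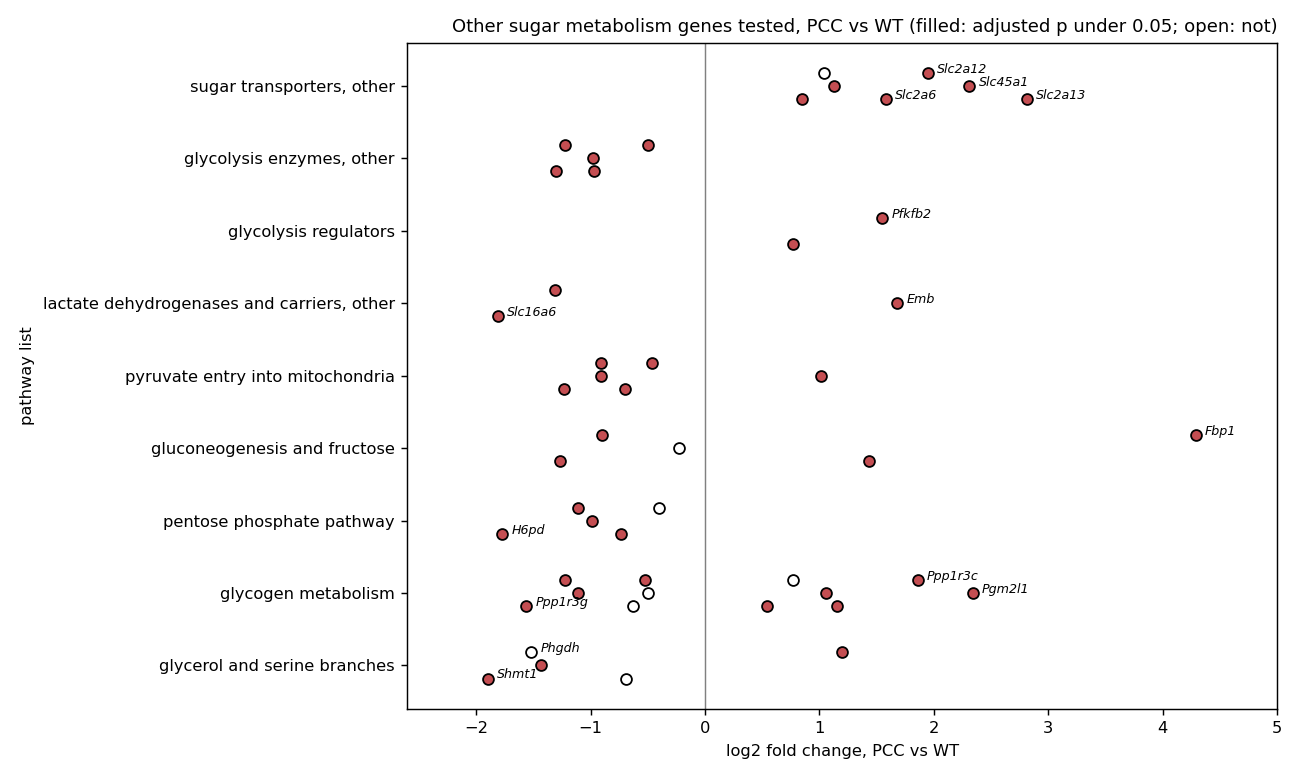
Log2 fold changes in PCC vs. WT (x axis) of 50 of the 51 tested genes of 9 sugar metabolism lists (y axis), filled at an edgeR adjusted *p* under 0.05, with gene names at a size of 1.5 or more. All 7 tested sugar transporters lie to the right of 0, all 5 tested pentose phosphate genes to the left (*Tkt*, an open point, not with the total of the listed counts), and *Fbp1* lies farthest from 0 at 4.29.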

How the data were processed

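RNA-seq of macrodissected adrenal medulla was analysed in 15 rats (5 WT, 5 HYP, 5 PCC), grouped by their labels. The authors mapped paired-end reads to the rat genome Rn06 with HISAT2 2.0.5 and counted them per gene, featureCounts 1.5.0-p3 being listed in the submitters' processing notes. Whether counting used strand is not given in the sources used here. They deposited, for each pair of groups, the genes that DESeq2 had called at an adjusted *p* under 0.05, with raw read counts, FPKM and a normalized signal made by the authors by dividing counts by size factors. The deposited p-values served only to recover how many genes the authors had tested (18790, 18057 and 17454), and the log2 fold changes of the authors were not used. Gene lengths are as deposited, but the FPKM of 27.2% of genes rest on another length.

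Counts were fitted per table with edgeR 4.0.16 (glmQLFit, glmQLFTest) in R 4.3.3 with limma 3.58.1, TMM over listed genes and filterByExpr. Adjusted *p* is the Benjamini-Hochberg value over the number of genes the authors tested, an upper bound for listed genes. The standard error is the log2 fold change over the square root of F. CPM use 1 TMM scale over the 5492 genes with values in all 15 samples and library totals recovered from genes with at least 20 counts. Ratios are log2 counts per kilobase with 0.5 added, compared by two-sided exact permutation and adjusted over 18 tests; 1 gene and the ratio with it are included in the totals but not reported here.

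Alternatives were the authors' size factors, recovered totals, listed totals, DESeq2 1.42.0, an unfiltered fit, a minimum of 10 counts per sample, 1 fit over 15 samples, a replicate block, a pseudocount of 1, ratios of FPKM, and leaving out each sample. The fits were tested on simulated data. The members and lists were chosen with earlier results of these data known. Named genes are the members, their isozymes and paralogs, 9 further genes of pyruvate and sugar metabolism where listed, and the 3 largest changes in each direction among the other lists. Other steps ran in Python 3.11.15 (scipy 1.17.1, numpy 2.4.6, matplotlib 3.10.9, pandas 2.3.3).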

Additional observations from a re-analysis of the deposited data

Results flagged for a closer look

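Among 47 sets of 5 values (CPM of the 10 genes and log2 ratios, by group), 4 had an end value whose gap to its neighbour, as a share of the range, exceeded Dixon's 95% critical value of 0.71. Chance gives about 1 in 20. In PCC, replicate 4 was far above the others for *Ldha* (gap share 0.912, 909 CPM) and *Slc16a1* (0.772, 153 CPM), and replicate 5 for *Hk2* (0.812, 22.2 CPM). WT replicate 5 was far above the others for *Pfkp* (0.771, 428 CPM). PCC replicate 4 had the lowest cortex marker sum (757 FPKM) and WT replicate 5 the lowest chromaffin marker sum (746 FPKM), whose part in these values was not tested.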

How the results depend on the processing

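No member reversed its direction. Of 51 counts under other settings 44 stayed within 1.5 times the reported one. With the total of the listed counts, 3 members and 9 other pathway genes passed in HYP vs. WT; in PCC vs. HYP, 22 other pathway genes passed with DESeq2 and 19 of 41 in the fit over all 15 samples, which tests more genes. The cause was not tested beyond that.

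With a replicate block, 0 members and 1 other pathway gene passed in PCC vs. HYP, and 0 ratio tests, since sign changes over 5 pairs allow no *p* under 0.0625. The numbers do not pair the animals: deviations of same-numbered samples correlated at -0.167 to 0.184. *Pfkfb3* (adjusted *p* = 0.114) and *Aldoc* (0.0538) in PCC vs. WT, *Slc2a3* (0.0508) in HYP vs. WT, and *Slc16a1* (0.0752) and *Pfkp* (0.0663) in PCC vs. HYP were lost under it.

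Without 1 sample, members called ranged from 7 to 9 in PCC vs. WT, 4 to 7 in HYP vs. WT and 0 to 4 in PCC vs. HYP, other pathway genes from 35 to 43, 8 to 15 and 3 to 20, and passing ratio tests from 9 to 12. The PCC vs. HYP difference of *Slc16a1*/*Slc16a3* (-0.09) ranged from -0.32 to 0.20 and reversed to 0.05 without HYP replicate 3 and to 0.20 without PCC replicate 4. Depth limits *Slc2a3* and *Fbp1*, which had 5 or fewer counts in some WT samples.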

Other observations

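Glycogen genes split in the tumors, as did all genes tested. Of 23 in the list only 12 were listed for PCC vs. WT. All 12 were tested and 9 passed, 5 higher and 4 lower. Of all genes tested 85.2% passed, 46.7% as higher and 38.5% as lower. With the total of the listed counts 6 glycogen genes passed as higher and 0 as lower. *Pgm2l1*, a glucose bisphosphate synthase of brain, rose by 2.34 (SE 0.31, edgeR adjusted *p* = 0.000366), *Ppp1r3c*, a glycogen-targeting subunit of protein phosphatase, by 1.86 (edgeR adjusted *p* = 0.0344; 0.91 and 0.0895 without PCC replicate 4, call also lost without WT replicate 2, 3, 4 or 5), the branching enzyme *Gbe1* by 1.15 (0.67 without PCC replicate 4, and call lost without WT replicate 1 or 2) and the brain phosphorylase *Pygb* by 1.06, while the muscle phosphorylase *Pygm* fell by 1.11 (call lost without WT replicate 1 or 4 or PCC replicate 2 or 3) and the targeting subunits *Ppp1r3g* and *Ppp1r3b* by 1.56 and 1.22. *Pgm2l1* also rose in HYP vs. WT (0.89, edgeR adjusted *p* = 0.0411, a call kept only without WT replicate 5 among 10 fits without 1 sample) and PCC vs. HYP (1.30, edgeR adjusted *p* = 0.0099). *Gbe1*, *Pygb*, *Pygm*, *Ppp1r3b* in PCC vs. WT, *Shmt2* and *Gpd1l* were named after their values were seen.

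In the branches to glycerol and serine, *Shmt1*, the cytosolic serine hydroxymethyltransferase, fell by 1.90 and its mitochondrial counterpart *Shmt2* rose by 1.2 in PCC vs. WT (edgeR adjusted *p* = 0.00302 and 0.00838). *Gpd1l*, related to the cytosolic glycerol phosphate dehydrogenase, fell by 1.43 in PCC vs. WT (edgeR adjusted *p* = 0.0045) and by 1.18 in PCC vs. HYP (edgeR adjusted *p* = 0.0283; call lost without HYP replicate 3, 4 or 5 or PCC replicate 2). Among marker lists of other cells, 10 of 10 chromaffin and 5 of 7 sustentacular and Schwann genes were higher in PCC vs. WT. So were 1 of 7 endothelial and 1 of 2 skeletal muscle genes, beside 46.7% of all genes tested. Lower were 2 of 7 sustentacular and Schwann, 5 of 7 endothelial, 1 of 1 leukocyte and 1 of 1 adipocyte genes (38.5% of all). In PCC vs. HYP 2 of 3 sustentacular and Schwann genes were lower (22.6% of all) and 0 higher. The FPKM sum over 7 sustentacular and Schwann genes was 25.1 to 62.8 in WT, 35.9 to 60.3 in HYP and 24.6 to 52.7 in PCC. No erythroid marker was tested.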
